A study of Mus musculus with 6 samples.

Results

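The 38 genes described here are those of glucose and lactate transport, glycolysis, the pentose phosphate pathway, the pyruvate dehydrogenase reaction and the tricarboxylic acid (TCA) cycle, chosen by name from the 36163 gene names on the array. Of these, 37 had a signal that could be tested, among 18253 genes tested in all. The samples were B1a cells, the CD5+ innate-like B cells of body cavities, sorted from the peritoneal cavity (PC) of 7-week-old female mice on the C57Bl/6 background. Knockout samples came from p40-/- CD25-/- mice and control samples from p40-/- CD25+/- mice, with 3 samples per genotype and at least 3 mice per sample. CD25 is the alpha chain of the interleukin-2 receptor (IL-2Ralpha, gene Il2ra), and p40 is the subunit shared by interleukin-12 and interleukin-23 (gene Il12b). Both genotypes lack p40, so the comparison is of CD25 loss on a p40-deficient background, and the control mice carry 1 null CD25 allele. The deletions are in the germline and not limited to B cells.

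Glucose enters a lymphocyte through GLUT transporters and is phosphorylated by hexokinase. Glycolysis splits it to pyruvate, which lactate dehydrogenase reduces to lactate or the pyruvate dehydrogenase complex feeds into the mitochondrial TCA cycle. The pentose phosphate pathway leaves glycolysis at glucose 6-phosphate. Its oxidative branch makes NADPH, and its non-oxidative branch moves carbon between sugar phosphates. Resting B cells use little glucose, activated B cells raise glucose uptake, and B1a cells are known for a higher glucose use than follicular B cells.

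Each array carried the Cy3-labelled RNA of 1 sample (1-colour Agilent mouse arrays). Each value below is a log2 level, the log2 of the processed spot signal minus the 75th percentile of its array. The 6 arrays share 1 slide and 1 scan. Signal was dimmer for knockout samples, with a 75th percentile between 66.5 and 162 against 252 to 272 for control samples. The share of spots well above background was 39.7% to 45.9% on knockout arrays and 47.2% to 50.6% on control arrays. Il2ra was 1.62, 1.13 and 1.35 on control arrays and -0.31, -0.59 and 0.86 on knockout arrays, so its probe was lower but still gave a signal in knockout samples. The B cell genes Cd79a, Cd79b, Ms4a1, Pax5 and Cd22 and the B1a genes Cd5, Itgam and Spn gave a signal well above background in every sample. The name Ighm is not used on the array. Of 10 macrophage genes 9 were tested, all with a log2 difference below 0 (median -0.50), and with a log2 summed level of 5.10 to 6.14 in control and 4.63 to 5.45 in knockout samples. Of 8 T cell genes 6 were tested, 5 of them above 0 (median 0.54), with a log2 summed level of 3.16 to 3.88 in control and 3.75 to 3.99 in knockout samples. The part of such cells in the results below was not tested.

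No member passed either threshold of a change. With limma, 0 of the 37 members had an adjusted p under 0.05, a call that 0.0383% of all genes reached, and 12 (32.4%) had an unadjusted p under 0.05, beside 25.1% of all genes. This share was below that of all genes with quantile normalization, at 13.5% of members against 20.1%, in the deposited log2 values, at 13.5% against 20.3%, and without control 3, at 7.89% against 13.5%. The methods' t-test also gave 0 members after adjustment and 9 (24.3%) at an unadjusted p under 0.05, beside 21.7% of all genes. At the thresholds of the study, 2-fold or more together with an unadjusted p no higher than 0.05, 0 of 37 members were called, against 3.52% of all genes tested. The smallest adjusted p of a member was 0.0917, for Tkt. In these bulk samples, fewer cells of a type and less RNA per cell cannot be told apart.

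Below these thresholds the members leaned to lower values in knockout samples. For 13 members (35.1%) all 3 knockout values lay below all 3 control values, as they did for 21.6% of all genes. The 13 were Slc2a3, Pfkm, Aldoc, Pdha1, Pdhb, Tkt, Taldo1, Cs, Dlst, Suclg1, Fh1, Mdh1 and Mdh2. For 2 members, Hk1 and Slc16a1, all knockout values lay above all control values, against 14.7% of all genes. Together 15 of 37 members did not overlap, beside 36.3% of all genes. The median log2 difference (knockout minus control) was -0.18 over the members and -0.12 over all genes tested (-0.09 and -0.10 without control 3), and 73.0% of members and 60.2% of all genes were below 0. In 11 of the 13 lower members the lowest value was that of knockout 2, the dimmest array.

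**Figure D1:**
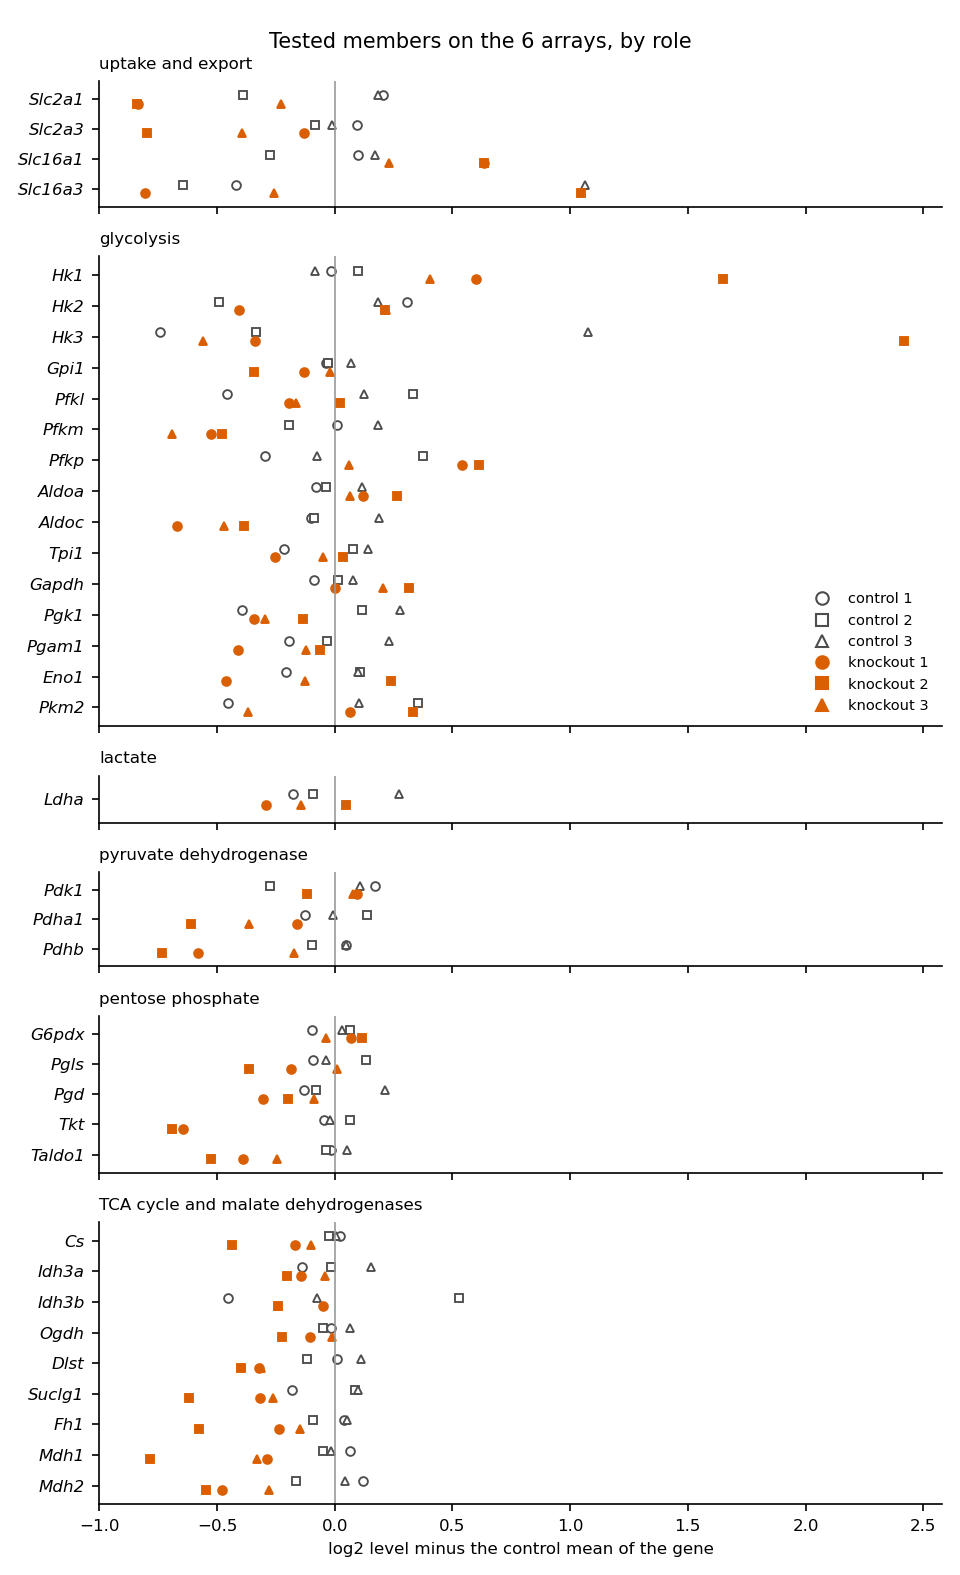
Log2 level of each tested member on the 6 arrays (x axis, minus the mean of the 3 control arrays of that gene), grouped by role, with open grey symbols for control and filled orange symbols for knockout arrays and 1 symbol shape per replicate number. The 9 TCA cycle and malate dehydrogenase genes lie mostly left of 0 in knockout samples, and Hk1 and Hk3 reach far right on the array of knockout 2.

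The difference between genotypes moved with the level of a gene over the whole array, and the members sit mostly at levels where all genes were lower. When the 18253 genes were sorted by mean level into 20 bins, the median log2 difference was 0.18 in the third bin, -0.25 in the seventeenth and 0.22 in the brightest. In the seventeenth bin 41.4% of genes had all knockout values below all control values, and in the brightest bin 8.0% did. Of the 37 members, 22 had a log2 difference below the median of their own bin. The median distance of a member from the median of its bin was -0.04 on the log2 scale. Averaged over the bins in which the members lie, 26.0% of genes were lower without overlap, beside the 35.1% of the members.

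**Figure D2:**
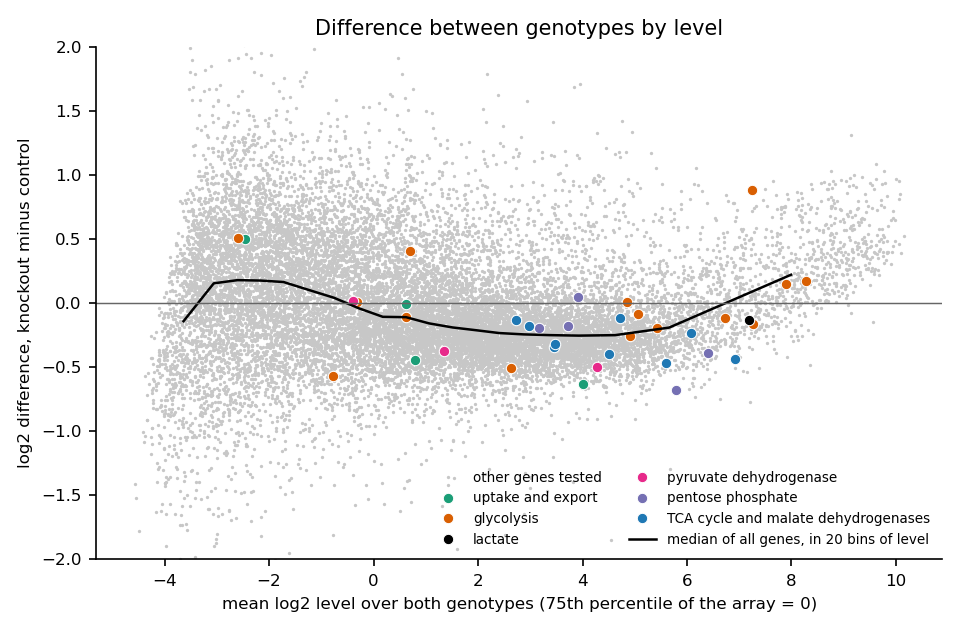
Log2 difference (y axis, knockout minus control) against the mean log2 level of both genotypes (x axis) for all 18253 genes tested (grey; 53 genes beyond 2 log2 units are outside the axis) and the 37 tested members, coloured by role. The black line joins the medians of 20 bins of level; it runs near -0.25 at the levels where most TCA cycle members lie, and it is above 0 at low levels, except in the dimmest bin at -0.14, and in the brightest bin.

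Among the 4 transporters 1 was lower without overlap, Slc2a3, and 1 was higher, Slc16a1, and neither held that with quantile normalization or in the deposited log2 values, where all 4 overlapped. Slc2a1 encodes GLUT1, the main glucose transporter of activated lymphocytes. Its log2 level was 4.54, 3.94 and 4.52 on control arrays and 3.50, 3.49 and 4.10 on knockout arrays. Knockout 3 lay above the lowest control value, so the groups overlapped. The log2 difference was -0.63 (with a standard error, SE, of 0.24 and a limma adjusted p of 0.176), a control level 1.55-fold that of knockout samples. Slc2a3 encodes GLUT3, a transporter with high affinity for glucose. It was 1.11, 0.93 and 1.00 on control arrays and 0.88, 0.22 and 0.62 on knockout arrays, with no overlap. It differed by -0.44 (SE 0.20, limma adjusted p = 0.208), and by -0.26 without knockout 2. The further glucose transporter genes that were tested, Slc2a6, Slc2a8 and Slc2a9, overlapped, with log2 differences of 0.03, -0.07 and -0.46.

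Slc16a1 encodes MCT1, a proton-coupled carrier that moves lactate and pyruvate in either direction. It was -2.60, -2.98 and -2.53 on control arrays and -2.07, -2.07 and -2.47 on knockout arrays. All knockout values were higher, knockout 3 by a small margin, and the log2 difference was 0.50 (SE 0.19, limma adjusted p = 0.174). It was 0.27 with quantile normalization and 0.26 in the deposited log2 values, and genes in its bin of level had a median of 0.18. Slc16a3 encodes MCT4, the carrier of lactate export in highly glycolytic cells. Its mean was 0.63 ± 0.93 (SD, n = 3) in control and 0.62 ± 0.95 (SD, n = 3) in knockout samples. The arrays of control 3 and knockout 2 stood well above the other 4 arrays, at 1.69 and 1.67.

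Hexokinases trap glucose in the cell, and the 3 tested isozymes had unlike values. Hk1, the isozyme expressed in most tissues, had the largest positive difference of any member by its representing probe. That probe read 6.79, 6.91 and 6.73 on control arrays and 7.41, 8.45 and 7.21 on knockout arrays. Every knockout value was above every control value, with knockout 2 the highest. The log2 difference was 0.88 (SE 0.32, limma adjusted p = 0.159). Hk1 lies in the brightest bin, where the median was 0.22 and 55.3% of genes were higher without overlap. Without knockout 2 it was 0.50, and without knockout 1 or knockout 3 it was 1.03 or 1.12 and passed the 2-fold thresholds. Itgam, which encodes CD11b and is one of the sorting markers of B1a cells, was also highest on knockout 2, at 5.86 against 4.73 and 4.40 on the other knockout arrays and 4.05 to 4.37 on control arrays. The B1a genes Cd5 and Spn were lowest on knockout 2 among the knockout arrays, at 3.05 and 4.07.

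The other probes for Hk1 did not share the difference. All 3 Hk1 probes lie on chromosome 10 within 61731230 to 61732776 (mm9). The representing probe, at chr10:61731230-61731288, is assigned by the file to a GenBank record, and the other 2 are assigned to a RefSeq transcript of Hk1. One of these read 3.89, 3.95 and 4.07 on control arrays and 4.01, 3.71 and 3.98 on knockout arrays, a log2 difference of -0.07 (SE 0.15). The other gave -0.04 (SE 0.36). With the mean of the 3 probes in place of the representing one, the log2 difference of Hk1 was 0.26.

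Hk2 is the inducible hexokinase of activated and growing cells. It was -0.01, -0.81 and -0.13 on control arrays and -0.72, -0.10 and -0.10 on knockout arrays. The groups covered the same range, and the log2 difference was 0.01 (SE 0.27). Hk3, a hexokinase mostly of myeloid cells, was -3.58, -3.17 and -1.76 on control arrays and -3.18, -0.42 and -3.40 on knockout arrays. Its probe was well above background on 2 of the 3 knockout arrays, and control 3 and knockout 2 stood out on the high side, the same arrays as for Slc16a3. Some macrophage genes were also highest on knockout 2 among the knockout arrays, Cd14 at 1.44 against -0.07 and -0.63, Csf1r at 3.35 against 2.39 and 2.43, and Emr1 at 2.61 against 1.60 and 1.90. On control 3, however, Csf1r and Emr1 were the lowest of the control arrays, at 2.69 and 1.89, and Mrc1 was lowest on knockout 2, at 0.22. Their part in these values was not tested. The log2 difference had no settled sign, at 0.51 (SE 0.83) with all arrays and -0.45 without knockout 2.

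Phosphofructokinase commits sugar to glycolysis and is built from 3 kinds of subunit. Pfkm, the muscle-type subunit, was -0.48, -0.69 and -0.31 on control arrays and -1.02, -0.97 and -1.19 on knockout arrays. The groups were well apart, and the log2 difference was -0.57 (SE 0.16, limma adjusted p = 0.123). With normexp and the 75th percentile it was -0.22 (limma adjusted p = 0.341). Genes in the same bin of level had a median log2 difference of 0.04. Pfkp, the platelet-type subunit, was 0.20, 0.87 and 0.42 on control arrays and 1.03, 1.11 and 0.55 on knockout arrays, with overlap. The mean was higher by 0.40 (SE 0.23, limma adjusted p = 0.289), and by 0.26 without control 1 and 0.15 with the mean of the probes. A second Pfkp probe, further along the transcript, gave -0.11 (SE 0.14). It was dim, at -2.95, -3.05 and -2.99 on control arrays and -3.16, -3.00 and -3.17 on knockout arrays. On knockout 2 it was not well above background, since the lowest such value on that array was -2.47. Pfkl, the liver-type subunit, differed by -0.11 (SE 0.22).

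Aldolase, which splits fructose 1,6-bisphosphate, showed one isozyme lower without overlap and the other overlapping. Aldoc was 2.80, 2.81 and 3.08 on control arrays and 2.22, 2.51 and 2.42 on knockout arrays. All knockout values were lower, with a log2 difference of -0.51 (SE 0.16, limma adjusted p = 0.133). Aldoa, the isozyme of most cells, was 7.75, 7.79 and 7.94 on control and 7.95, 8.09 and 7.89 on knockout arrays. Its log2 difference of 0.15 (SE 0.14, limma adjusted p = 0.486) became -0.050 with quantile normalization and -0.055 in the deposited log2 values.

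The members from triose phosphate to pyruvate overlapped between genotypes. Gapdh, the glyceraldehyde 3-phosphate dehydrogenase often used as a reference gene, was 8.11, 8.21 and 8.28 on control arrays and 8.20, 8.51 and 8.40 on knockout arrays. The log2 difference was 0.17 (SE 0.15, limma adjusted p = 0.446), and it became -0.082 with quantile normalization. The array holds 8 tested Gapdh probes, which gave log2 differences from -0.03 to 0.43. The representing one is placed by the array file on chromosome 7 and another on chromosome 8, while the remaining 6 lie on chromosome 6. The Pgk1 probe is likewise placed on chromosome 3 although the gene is X-linked. Both genes have near-identical copies elsewhere in the genome, so their values are uncertain. Pkm2 is the symbol in the file for the muscle-type pyruvate kinase gene, and which of its isoforms the probe reads was not tested. It was 4.39, 5.20 and 4.95 on control and 4.91, 5.18 and 4.48 on knockout arrays. Its log2 difference was 0.01 (SE 0.27). The remaining 6 glycolytic genes, Gpi1, Tpi1, Pgk1, Pgam1, Eno1 and Pfkl, had log2 differences between -0.26 and -0.09, each with overlapping groups. Over the 15 glycolytic genes the median log2 difference was -0.09, or 0.0018 when arrays were scaled on the median of detected probes, with 2 genes lower and 1 higher without overlap.

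**Figure D3:**
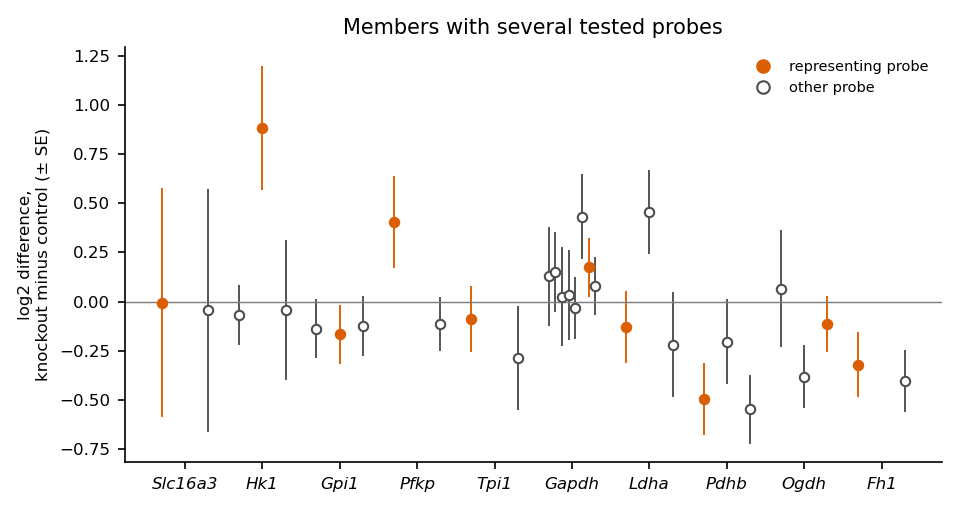
Log2 difference (y axis, knockout minus control, with bars of 1 standard error) of every tested probe of the 10 members with several tested probes, with the representing probe in orange. The Hk1 probes range from -0.07 to 0.88 and the 8 Gapdh probes from -0.03 to 0.43, while both Fh1 probes and all 3 Pdhb probes are below 0.

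Lactate dehydrogenase A turns pyruvate into lactate. Ldha was 7.07, 7.15 and 7.52 on control arrays and 6.95, 7.30 and 7.10 on knockout arrays. The groups overlapped, and the log2 difference was -0.13 (SE 0.18, limma adjusted p = 0.638). A further Ldha probe gave 0.46 (SE 0.21) and the third -0.22 (SE 0.27). Ldhb, the other subunit, was well above background on 2 control arrays and 1 knockout array and was not tested.

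The pyruvate dehydrogenase complex links glycolysis to the TCA cycle, and both measured subunits of its first enzyme were lower without overlap, of which Pdhb alone kept this with quantile normalization and in the deposited log2 values. Pdhb encodes the beta subunit. It was 4.57, 4.43 and 4.57 on control arrays and 3.94, 3.79 and 4.35 on knockout arrays, without overlap. This was a log2 difference of -0.50 (SE 0.18, limma adjusted p = 0.162), and 2 further probes gave -0.55 and -0.20. Pdha1, the alpha subunit, differed by -0.38 (SE 0.17, limma adjusted p = 0.209), also without overlap. Pdk1, a kinase that inhibits the complex, was -0.24, -0.68 and -0.30 on control arrays and -0.31, -0.52 and -0.33 on knockout arrays. Its log2 difference was 0.02 (SE 0.17).

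In the pentose phosphate pathway the 2 members of the non-oxidative branch, Tkt and Taldo1, were lower without overlap, and the 3 members of the oxidative branch overlapped. Other genes of the pathway did not divide this way, since Rpia and Shpk of the non-oxidative side overlapped, Rpe was lower without overlap at -0.34, and H6pd, an oxidative enzyme, was lower without overlap at -0.77. Of the 5 members of this pathway 40.0% were lower without overlap, beside 38.3% of genes averaged over their bins of level. Tkt encodes transketolase, which moves carbon units between sugar phosphates. It was 6.07, 6.19 and 6.10 on control arrays and 5.47, 5.43 and 5.43 on knockout arrays. The values within a genotype were tight, with SDs of 0.059 and 0.028, and the groups were far apart. This gave a log2 difference of -0.68 (SE 0.13, limma adjusted p = 0.0917), a control level 1.60-fold that of knockout samples. Its bin of level had a median log2 difference of -0.19. Tkt was lower without overlap under all 13 alternatives that kept every array. Those that changed only the filter, choice of probe, test, weights or block left its values, and so this outcome, unchanged. The log2 difference of Tkt ran from -1.03 to -0.55 over all 19 alternatives tried.

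The adjusted p of Tkt passed the threshold in 3 of these 19. It was 0.0159 for limma with a trend and robust estimation, 0.0141 with array weights and 0.00302 with the 75th percentile after normexp, whereas normexp with quantile normalization gave 0.0667. In the trend and robust fit Tkt was the 1 member called, beside 4.13% of all genes. With array weights 10 members and 24.5% of all genes were called, and with normexp and the 75th percentile 15 members and 35.3% of all genes. Normexp with quantile normalization called 0 members and 13 of all genes. Taldo1, the transaldolase of the same branch, was 6.58, 6.56 and 6.65 on control arrays and 6.20, 6.07 and 6.35 on knockout arrays. It differed by -0.39 (SE 0.14, limma adjusted p = 0.160), in a bin of level whose median was -0.19. It was again without overlap under the 13 alternatives that kept every array, many of which, as for Tkt, left its values unchanged.

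G6pdx encodes glucose 6-phosphate dehydrogenase, the first and rate-limiting enzyme of the oxidative branch. It was 3.79, 3.95 and 3.91 on control arrays and 3.95, 3.997 and 3.84 on knockout arrays. This was a log2 difference of 0.05 (SE 0.13, limma adjusted p = 0.822), in a bin of level whose median was -0.25. Pgls and Pgd, the lactonase and the second dehydrogenase, differed by -0.18 and -0.20 with overlapping groups. Whether the branches differ from each other was not tested.

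All 9 TCA cycle and malate dehydrogenase genes had a log2 difference below 0, from -0.47 to -0.11, and 6 of the 9 were lower without overlap, although 3 of the 9 were above 0 with quantile normalization and in the deposited log2 values. At their levels 33.6% of genes were lower without overlap, averaged over their bins. The median log2 difference of the 9 was -0.32, and the median of their bins was -0.24. It was -0.19 without knockout 2. With quantile normalization 3 of the 9 were lower without overlap, beside 16.8% of all genes, 1 was higher without overlap, and the median was -0.13.

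Mdh1 and Mdh2 encode the cytosolic and mitochondrial malate dehydrogenases, which together carry reducing equivalents in the malate-aspartate shuttle. Mdh1 was 5.91, 5.79 and 5.82 on control arrays and 5.55, 5.06 and 5.51 on knockout arrays. The genotypes differed by -0.47 (SE 0.17, limma adjusted p = 0.168), and by -0.31 without knockout 2. Mdh2 was 7.26, 6.97 and 7.18 on control arrays and 6.66, 6.59 and 6.86 on knockout arrays. The corresponding value was -0.43 (SE 0.15, limma adjusted p = 0.155), in a bin of level whose median was 0.22. Both were lower without overlap under the 13 alternatives that kept every array, many of which, as for Tkt, left their values unchanged.

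Cs encodes citrate synthase, the entry enzyme of the cycle. It was 6.21, 6.16 and 6.19 on control arrays and 6.01, 5.75 and 6.08 on knockout arrays. The values did not overlap and differed by -0.24 (SE 0.15, limma adjusted p = 0.317), close to the median of its bin at -0.19, and by -0.14 without knockout 2. Suclg1, the alpha subunit of succinyl-CoA ligase, differed by -0.40 (SE 0.16, limma adjusted p = 0.191). Dlst, the succinyltransferase of the 2-oxoglutarate dehydrogenase complex, differed by -0.34 (SE 0.14). Fh1, the fumarase, differed by -0.32 (SE 0.16), and its second probe by -0.40. Without knockout 2 the value of Fh1 was -0.19. The isocitrate dehydrogenase subunits Idh3a and Idh3b and the 2-oxoglutarate dehydrogenase Ogdh overlapped between genotypes, with log2 differences from -0.18 to -0.11. A further Ogdh probe was lower without overlap, at -0.38 (SE 0.16).

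The probes behind some of these values are shown because a probe reads only its own 60 bases of a transcript. Suclg1 and Fh1 are TCA cycle genes that were lower without overlap, and Pfkp and Hk3 are isozymes whose groups overlapped. The sequences are those of the array file, 5′ to 3′, in the order chr6:73221044-73221103 (plus strand), chr1:177531659-177534089 (minus strand), chr13:6581718-6583872 (minus strand) and chr13:55107900-55107959 (minus strand), all in mm9. The genomic spans of the Fh1 and Pfkp probes exceed 60 bases, since the file places each across a gap in the genome.
Suclg1 probe: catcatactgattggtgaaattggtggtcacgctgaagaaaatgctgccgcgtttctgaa
Fh1 probe: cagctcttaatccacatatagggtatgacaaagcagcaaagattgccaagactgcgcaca
Pfkp probe: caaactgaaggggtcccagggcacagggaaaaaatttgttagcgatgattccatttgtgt
Hk3 probe: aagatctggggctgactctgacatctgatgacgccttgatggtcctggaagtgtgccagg

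A list of 70 other genes of the same pathways was mostly lower too. Of these 54 were tested, 49 of them with a log2 difference below 0 (45 of 54 with quantile normalization), and 18 were lower and 1 higher without overlap. As shares of the 54 these are 90.7% below 0 and 33.3% lower, beside 60.2% and 21.6% of all genes, and 26.8% of genes were lower without overlap averaged over the bins in which the 54 lie. Of the 54, 5 were well above background on every control array but not on every knockout array, and all 5 were below 0. Without the filter on dim probes 50 of the 70 were below 0, with 18 lower and 9 higher without overlap. As shares these are 71.4%, 25.7% and 12.9%, beside 34.0%, 11.1% and 36.6% of all genes under the same setting. The median log2 difference was -0.29, and none had a limma adjusted p under 0.05, while 10 (18.5%) had an unadjusted p under 0.05, a smaller share than the 25.1% of all genes. The adjusted count of this list was 23 with normexp and the 75th percentile, 8 with array weights and 2 with the trend and robust fit, where 35.3%, 24.5% and 4.13% of all genes were called. Eno2, an enolase best known from neurons, was the 1 gene past the 2-fold thresholds, which 3.52% of all genes passed. It was -2.70, -2.42 and -3.04 on control arrays and -2.13, -1.25 and -1.53 on knockout arrays, all higher, with a log2 difference of 1.08 (SE 0.27, limma adjusted p = 0.113). It fell short of 2-fold at 0.89 with quantile normalization, 0.88 in the deposited log2 values, 0.83 with normexp and the 75th percentile, 0.84 with array weights, 0.89 without knockout 2 and 0.92 without control 3. With normexp and quantile normalization it was 0.37 and the groups overlapped. Me2, the mitochondrial NAD-dependent malic enzyme, was 2.44, 2.37 and 2.33 on control arrays and 1.47, 1.41 and 1.79 on knockout arrays. This was a log2 difference of -0.83 (SE 0.15, limma adjusted p = 0.0917). H6pd, which oxidizes glucose 6-phosphate in the endoplasmic reticulum, differed by -0.77 (SE 0.13, limma adjusted p = 0.0881), without overlap. Suclg2, a beta subunit of succinyl-CoA ligase, differed by -0.65 (SE 0.28, limma adjusted p = 0.197), and knockout 2 was the lowest at -0.47. Pgm1, a phosphoglucomutase, overlapped, with knockout 2 at -4.19 against -2.31 and -2.05 on the other knockout arrays, and its probe was well above background on 2 of 3 knockout arrays.

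For some enzymes built of more than 1 subunit, all measured subunits were lower without overlap, beside 21.6% of all genes. All 4 succinate dehydrogenase genes, Sdha, Sdhb, Sdhc and Sdhd, were lower without overlap, with log2 differences from -0.48 to -0.33, and were below 0 also with quantile normalization, where 2 of them did not overlap. Without knockout 2 they ran from -0.41 to -0.20. At levels such as theirs, in bins 16 to 19, 34.5% to 41.4% of all genes were lower without overlap. The 3 succinyl-CoA ligase genes, Suclg1, Suclg2 and Sucla2, were also lower without overlap, from -0.65 to -0.40. Without knockout 2 they ran from -0.33 to -0.29, and with quantile normalization 2 of the 3 did not overlap. Both subunits of the mitochondrial pyruvate carrier, Mpc1 and Mpc2, named Brp44l and Brp44 in the file, were lower without overlap, at -0.45 and -0.38, and 1 of them with quantile normalization. Without knockout 2 they were -0.36 and -0.22. At levels such as those of Suclg1, Sucla2, Mpc1 and Mpc2, in bins 15 to 18, 36.3% to 41.4% of all genes were lower without overlap. At levels such as that of Suclg2, in bins 9 and 10, 18.1% and 18.8% were. The 5 genes of the pyruvate dehydrogenase complex were all below 0, from -0.50 to -0.16, and 2 of them did not overlap. Of the 3 Idh3 genes, 1 was lower without overlap, Idh3g at -0.26, and with quantile normalization 2 of the 3 were above 0. These groupings were made with the values known and carry no test. Hif1a and Myc, which encode transcription factors known to drive glycolytic genes, differed by -0.27 and -0.34 with overlapping groups.

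**Figure D4:**
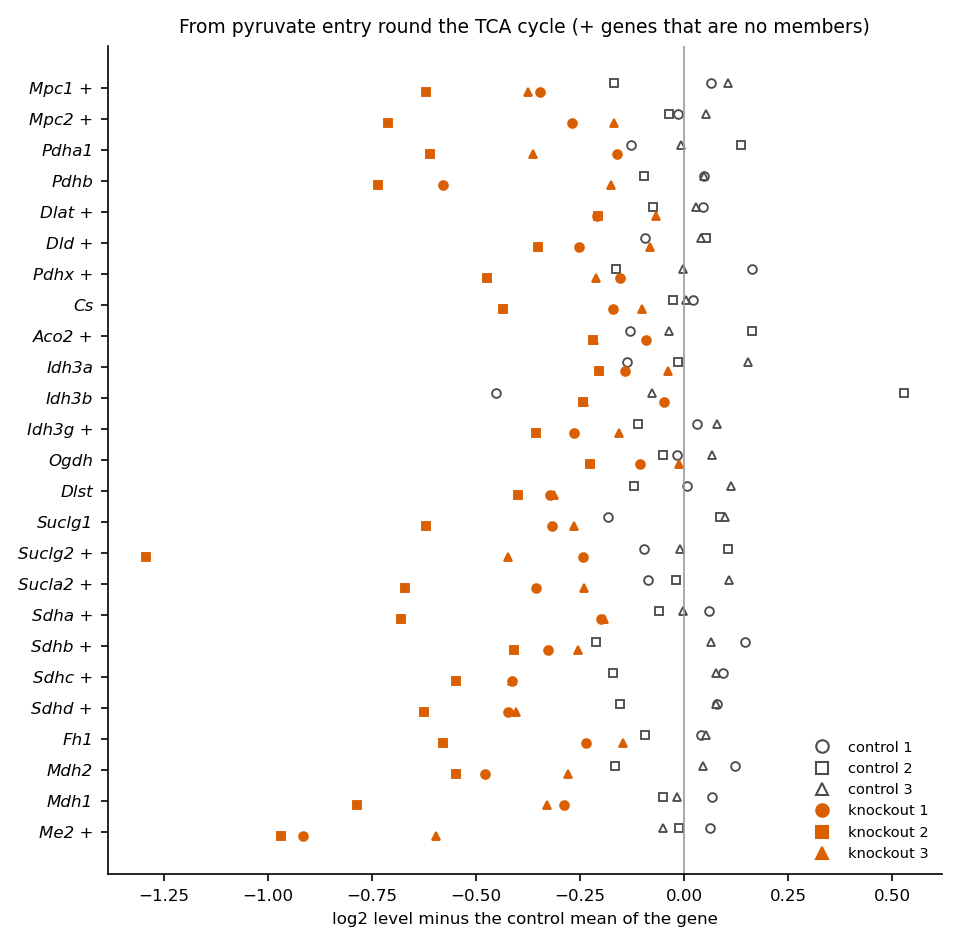
Log2 level on the 6 arrays (x axis, minus the mean of the 3 control arrays of that gene) for genes from pyruvate entry round the TCA cycle, with members and, marked +, genes that are no members; open grey symbols are control and filled orange symbols knockout arrays, with 1 shape per replicate number. All 4 Sdh genes and both Mpc genes have their knockout values left of their control values, and knockout 2 is most often the leftmost.

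Ratios of paired genes within an array do not depend on the constant by which the array was scaled, although they do move with the trend over levels, and 8 pairs of isozymes or opposed genes were compared between genotypes. For 2 of the 8 the knockout and control arrays did not overlap. The log2 ratio of Aldoc to Aldoa, relative to its control mean, was -0.02, -0.05 and 0.07 on control arrays and -0.79, -0.65 and -0.53 on knockout arrays, a difference of -0.66. Genes in the bins of Aldoc and Aldoa had medians of -0.24 and 0.22, which differ by -0.47. The log2 ratio of Pfkp to Pfkl was 0.16, 0.04 and -0.20 on control arrays and 0.74, 0.59 and 0.22 on knockout arrays, a difference of 0.52. Both genes lie in the same bin of level. The second Pfkp probe, which was dim and not well above background on knockout 2, gave -0.11. Each had a two-sided exact permutation p of 0.1, the smallest that 3 against 3 arrays allow, and 0.4 after Benjamini-Hochberg adjustment over the 8 pairs. The remaining 6 pairs overlapped, with exact permutation p from 0.2 to 0.6. They were Slc2a3 to Slc2a1, with a difference of 0.19, Hk2 to Hk1, Hk3 to Hk1, Pfkm to Pfkl, Slc16a3 to Slc16a1 and Pdk1 to Pdha1. The difference of Hk2 to Hk1, -0.88, rests on the Hk1 probe described above. This exact test cannot reach a threshold of 0.05 with 3 arrays per genotype, and no other test of the ratios was run.

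Promoters are shown for the 4 members that were lower without overlap by the largest amount among those with a single start site in the table used, so that the letters they share can be seen. They are RefSeq sequences in GRCm38.p6, 250 bases before to 50 after the start, 5′ to 3′ on the strand of the gene. The regions are chr14:30548881-30549180 (plus strand) for Tkt, chr14:8172943-8173242 (minus strand) for Pdhb, chr11:21571885-21572184 (minus strand) for Mdh1 and chr5:135778399-135778698 (plus strand) for Mdh2. Capitals mark the letters GGGCGG (GC box) and ACGTG (the core of a hypoxia response element) on either strand. The other motifs searched have no match in these 4.
Tkt promoter: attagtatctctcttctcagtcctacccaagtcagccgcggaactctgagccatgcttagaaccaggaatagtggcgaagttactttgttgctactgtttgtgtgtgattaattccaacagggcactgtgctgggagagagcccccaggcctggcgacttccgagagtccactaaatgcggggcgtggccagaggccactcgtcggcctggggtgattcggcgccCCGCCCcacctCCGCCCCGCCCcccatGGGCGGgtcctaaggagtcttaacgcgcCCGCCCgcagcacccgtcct
Pdhb promoter: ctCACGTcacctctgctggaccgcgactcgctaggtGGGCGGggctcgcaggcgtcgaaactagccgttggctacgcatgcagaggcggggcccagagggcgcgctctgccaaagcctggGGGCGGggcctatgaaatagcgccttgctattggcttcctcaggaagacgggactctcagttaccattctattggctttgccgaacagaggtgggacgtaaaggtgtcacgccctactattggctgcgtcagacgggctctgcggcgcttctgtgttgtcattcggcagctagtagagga
Mdh1 promoter: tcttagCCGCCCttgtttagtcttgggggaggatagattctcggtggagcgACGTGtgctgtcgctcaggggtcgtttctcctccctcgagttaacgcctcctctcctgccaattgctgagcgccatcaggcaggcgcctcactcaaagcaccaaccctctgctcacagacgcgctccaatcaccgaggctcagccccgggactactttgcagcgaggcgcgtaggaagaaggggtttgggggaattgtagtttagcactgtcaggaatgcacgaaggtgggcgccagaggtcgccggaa
Mdh2 promoter: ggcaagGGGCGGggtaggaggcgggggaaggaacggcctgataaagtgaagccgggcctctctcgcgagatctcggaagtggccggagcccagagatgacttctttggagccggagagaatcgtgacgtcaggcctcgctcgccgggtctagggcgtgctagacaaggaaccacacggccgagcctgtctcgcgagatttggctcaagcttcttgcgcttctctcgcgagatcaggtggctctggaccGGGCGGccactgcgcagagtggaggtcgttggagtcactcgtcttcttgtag

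The 36 members found in that table have 54 promoters. GGGCGG was present in 61.1% of these 54 and in 35.7% of all 32851 promoters. ACGTG was present in 46.3% and 19.6%. CACGTG, the E-box bound by MYC, which contains ACGTG, was present in 11.1% and 7.15%. GCGCATGC, the core of an NRF-1 site, was present in 7.41% and 2.71%. Promoters of 1 gene overlap in sequence, and a match in letters is a description of the window and not of binding.

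**Figure D5:**
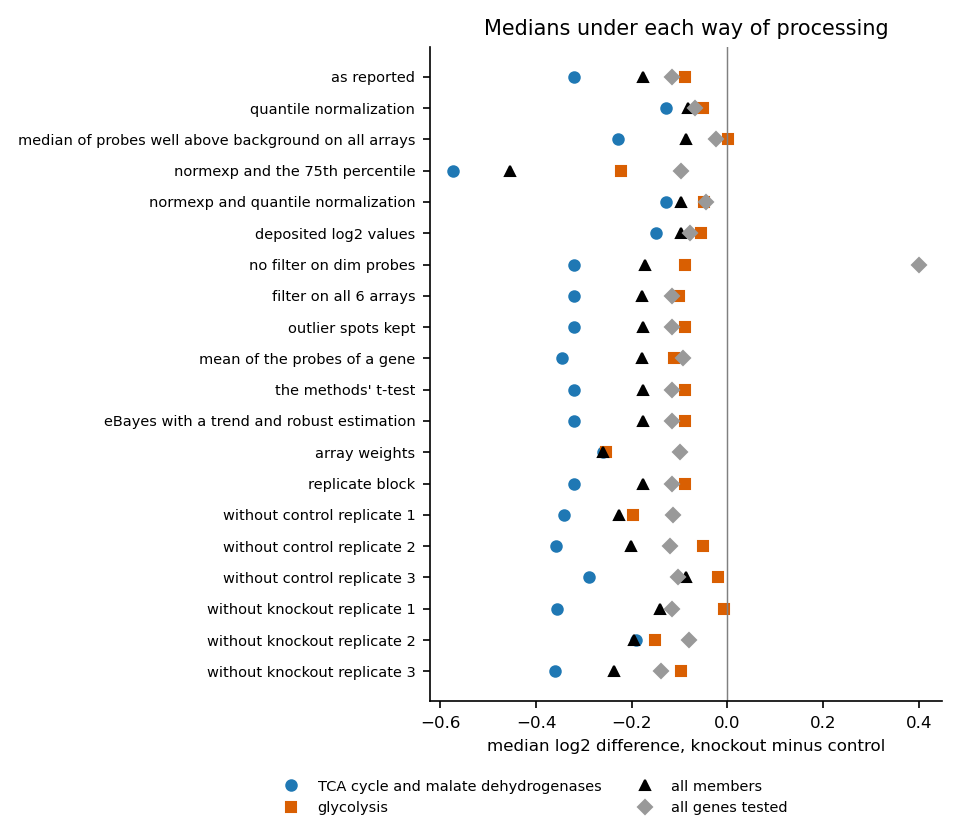
Median log2 difference (x axis, knockout minus control) of the 9 TCA cycle and malate dehydrogenase genes, the 15 glycolytic genes, all members tested and all genes tested, under the reported processing and each of 19 alternatives (y axis). The median of the TCA cycle genes runs from -0.57 to -0.13 and stays left of 0 throughout, and the median of all members runs from -0.45 to -0.08.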

How the data were processed

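The authors read 6 1-colour arrays with Agilent Feature Extraction 10.7.1.1 and deposited spot intensities, background subtracted and not scaled between arrays, with quality marks. They also deposited log2 values with a median of 3.17 on each array, which correlated by 0.996 or more with the log2 intensities of the same array; their centring and normalization are not given in the sources used here. Here, log2 of the processed intensity minus the 75th percentile of the array was used. Outlier spots were left out and spots of a probe averaged. Probes entered the test if every array of 1 genotype or the other read them well above background, with 2 or more measured arrays per genotype. The probe with the highest mean represented a gene, named as in the file. Genotypes were compared over all 18253 genes with limma 3.58.1 in R 4.3.3, with Benjamini-Hochberg adjustment at 0.05, and p-values measure the spread between these samples. Alternatives changed the normalization, background correction, filter, choice of probe, test, array weights and block, or left out 1 array. The steps were tested on simulated data. The number of arrays limits the precision. Members, lists and tests were chosen with earlier results of these data known, and the 20 bins of level and the printed sequences after the values were seen. Members named with values are the 8 largest differences in each direction and Slc2a1, Hk1, Hk2, Hk3, Gapdh, Pkm2, Ldha, Pdk1, G6pdx and Cs; of other pathway genes, those past 2-fold and the largest up to 5. Further members are given for their enzyme or branch. Probe coordinates are mm9, per the file headers.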

Additional observations from a re-analysis of the deposited data

How the results depend on the processing

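Of the 37 tested members, 20 kept their direction under all 19 alternatives, 17 of them lower. The count at the 2-fold thresholds was 1 with normexp and the 75th percentile (offset 50), where it was Tkt, and 0 to 1 when 1 array was left out, the 1 being Hk1 without knockout 1 or knockout 3. The adjusted count was 15 with normexp and the 75th percentile, 10 with array weights and 1 with the trend and robust fit. The count without overlap was 25 with normexp and the 75th percentile and 15 to 24 when 1 array was left out, 24 without knockout 3. Over all genes the share without overlap was 56.3% with normexp and the 75th percentile and 52.6% without knockout 3, against 36.3% as reported. The count of members was 11 with quantile normalization (29.7%, beside 30.4% of all genes). In the deposited log2 values it was 10 (27.0%, beside 30.7% of all genes). Scaling on the median of detected probes gave 11 lower and 4 higher (15.1% and 18.4% of all genes), and normexp with quantile normalization 9 and 4 (16.9% and 13.5%). The median of all members was -0.45 with normexp and the 75th percentile and -0.24 to -0.09 when 1 array was left out, -0.09 without control 3, where it was -0.10 over all genes. Without the filter on dim probes the median of all genes moved to 0.40. The cause of these shifts was not tested.

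Of the members named by rule, Hk3 and 7 with smaller differences reversed direction. With quantile normalization Gapdh was -0.082, Aldoa -0.050, Pdk1 -0.034 and Hk2 -0.027. With normexp and the 75th percentile Gapdh was -0.16, Aldoa -0.17, G6pdx -0.23 and Pkm2 -0.29. With normexp and quantile normalization Gapdh was -0.10, Aldoa -0.049 and Hk2 -0.038. In the deposited log2 values Gapdh was -0.10, Aldoa -0.055, Pdk1 -0.032 and Hk2 -0.030. With array weights Hk3 was -0.58, Hk2 -0.34 and Pkm2 -0.020. With the mean of probes Ldha was 0.036. When 1 array was left out, Hk3 ran from -0.45 to 1.05, Pdk1 from -0.12 to 0.10, Hk2 from -0.24 to 0.22, Pkm2 from -0.22 to 0.20 and Ldha from -0.22 to 0.0069.

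Samples of the 2 genotypes share replicate numbers, but their deviations from the group means correlated for numbers 1, 2 and 3 by 0.19, 0.06 and 0.09, so the numbers were not taken as pairs. With the replicate number as a block, 0 members passed the 2-fold or the adjusted threshold, and 11 had an unadjusted p under 0.05, against 12 without the block. The 15 members without overlap and the median of -0.18 cannot change with the block, since each genotype has every replicate number.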

Other observations

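Among the B cell genes, Pax5 and Cd79b were higher without overlap, with log2 differences of 0.57 and 0.28 and limma adjusted p of 0.122 and 0.273. Of the 4 plasma cell genes, Igj, the immunoglobulin J chain, was 2.91, 2.29 and 2.48 on control arrays and 0.42, -0.55 and 2.04 on knockout arrays, and Xbp1 differed by -0.52, both without overlap. These genes were chosen after their values were seen. Their relation to the metabolic genes was not tested.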
